A study of Mus musculus with 5 samples.

Results

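The 9 genes described here encode ligands, an activating protease and receptors of the hepatocyte growth factor (HGF) and epidermal growth factor (EGF) systems. They were fixed by name, among 31053 genes in the files: Hgf, Hgfac and Met for HGF, and Egf, Tgfa, Areg, Hbegf, Egfr and Erbb3 for EGF. HGF is secreted by non-parenchymal liver cells as an inactive precursor. Hgfac, made by hepatocytes, is a serine protease that cleaves it, and Met is the receptor tyrosine kinase that binds the cleaved form. Egf, Tgfa, Areg and Hbegf are membrane-anchored ligands of the receptor Egfr, and Erbb3 is a receptor of the same family that binds neuregulins and signals through its partners. Met and Egfr are known as the main growth-signal receptors of hepatocytes in the regenerating liver.

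Liver cells of C57BL/6J mice were released by two-step perfusion, enriched for live cells and profiled as droplets with 10x v3 chemistry, with 1 library for each of 5 groups. The groups were mice at postnatal day 14 (P14), an adult control, and animals sampled 24, 48 or 96 h after PHx (partial hepatectomy), an operation that takes out part of the liver and makes the rest regrow. Operated mice were 8 weeks old. The labels contradict each other on the adult control: a protocol counts it with the operated mice, while its title and source call it a control, and it was treated as one. The sample description of the control carries another code than the other 4, so effects of whatever that code marks and differences from the control cannot be told apart. The labels do not give the number of mice or their sex. In hepatocytes Xist had 54268 UMIs (unique molecular identifiers, counts of distinct RNA molecules) in the P14 library and at most 1 in each adult library, while Ddx3y of the Y chromosome had 0 UMIs at P14 and 1490 to 2724 in the adult libraries. By these genes the P14 library was female and the 4 adult libraries were male, and age and sex cannot be told apart in any P14 comparison below.

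Members were read in barcodes of 2 kinds, chosen by a rule. Hepatocytes had at least 5000 UMIs, 10% to 30% mitochondrial UMIs and at least 1% of UMIs from Alb, Apoa1 and Ttr. There were 2106 at P14, 925 in the control, and 1170, 719 and 771 at 24, 48 and 96 h, with median depths of 18527 to 38922.5 UMIs. Endothelial barcodes had at least 1000 UMIs, 500 genes, under 30% mitochondrial UMIs, 0 Ptprc UMIs and at least 3 of 7 endothelial markers. There were 58, 79, 181, 66 and 99 in the same order, with median depths of 1811 to 8298 UMIs. Of the 79 in the control, 13 ranked above 20000 by UMIs, past the rank from which empty droplets were taken. Each other library had 0 such endothelial barcodes. Between libraries, 3 hepatocyte barcodes and 0 endothelial barcodes were shared. Levels are given as CPM, the count scaled to the non-mitochondrial UMIs of the class. In hepatocytes the endothelial markers Stab2 and Ptprb were at 1.06 to 4.51 CPM. Alb, on which the hepatocyte rule selects, was at 19565 CPM or more in each library. Of liver genes outside the rule, Serpina1a was at 2736 to 6735 CPM, Cps1 at 1974 to 5127 and Fgb at 3094 to 9848. Cyp2e1 was at 680 to 2402 CPM and Ass1 at 980 to 1892. Free RNA held these genes too, with Ass1 above its hepatocyte level in each library. The endothelial rule was less clean, as 5 to 18 endothelial barcodes per library also met the hepatocyte rule. These were deep, so they weigh more in the sums than their number. Leaving them out took the non-mitochondrial endothelial UMIs from 906534 to 334909 at P14 and from 257880 to 190312 in the control. At 24, 48 and 96 h the UMIs went from 690674 to 451722, 450369 to 257432 and 344456 to 273364. At P14, endothelial Alb was at 63679 CPM with these barcodes and 5413 CPM without them. Free RNA from empty droplets stood apart in the adult control. Its empty droplets had a median of 1330 UMIs, against 287 to 775 in the other libraries, which would make up 49.7% of the UMIs in control endothelial barcodes outside the hepatocyte rule, and 5.23%, 23.2%, 6.00% and 24.8% at P14, 24, 48 and 96 h. The endothelial values of the members are therefore given with and without the barcodes that met both rules, or beside the UMIs that free RNA would give.

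With 1 library a group there is no test of any difference. Intervals below are exact 95% intervals that cover counting error only, and differences between mice are not in them. A member was called changed when log2((CPM + 1)/(CPM + 1)) over the adult control was at least 1 or at most -1, provided that 1 of the libraries held 5 CPM or more. All 4 comparisons share the control library.

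In hepatocytes, Hgfac and Erbb3 fell at 24 h after PHx and were still past the 2-fold rule at 48 h, and Met was at the edge of the rule at 24 h. At 96 h none of the 9 members was past it. Egfr stayed within 2-fold of the control at all 3 times, while at P14 it was 9.03-fold lower than in the adult. Tgfa was higher at 24 h than in any other library, at 1.94-fold the control (1.72 to 2.18), just under the rule. Of the 9 members, 5 passed the filter on low values in hepatocytes (Hgfac, Met, Egfr, Erbb3 and Tgfa), and Hgf, Egf, Hbegf and Areg were under 5 CPM in every library.

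The HGF side is given first. Hgfac had 268 CPM at P14, 88.6 in the control, and 33.1, 38.5 and 85.0 at 24, 48 and 96 h (17278, 1180, 646, 803 and 1142 UMIs). The level was highest at P14, lowest at 24 and 48 h, and at 96 h back within counting error of the control, with a ratio of 0.959 (0.883 to 1.04). The log2 ratios to the control were -1.39 at 24 h and -1.18 at 48 h, and 1.58 at P14. Met had 51.9 CPM at P14, 63.2 in the control, and 31.1, 36.3 and 56.5 at 24, 48 and 96 h. It was lowest at 24 and 48 h, like Hgfac, but at P14 it lay slightly under the control. At 24 h Met was at 0.492 of the control (0.442 to 0.546), at the edge of the rule, and its call ended under 6 of 13 alternatives, for example at a log2 ratio of -0.94 with TMM scaling (trimmed mean of M values). Its log2 ratios were -0.78 at 48 h, -0.16 at 96 h and -0.28 at P14. Hgf, the ligand itself, had 2 to 8 UMIs per library over all hepatocytes, or at most 0.41 CPM, below its level in free RNA in 5 of 5 libraries (0.11 to 1.77 CPM).

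On build GRCm38 the genes lie at chr5:35041509-35048461 (Hgfac), chr5:16553495-16620152 (Hgf), chr6:17463800-17573980 (Met), chr6:86195223-86275719 (Tgfa) and chr11:16752203-16918158 (Egfr), each on the plus strand. The letters just upstream of the start site are shown for Hgfac, past the rule at 24 and 48 h, from the RefSeq promoter table of build GRCm38.p6, together with those of Hgf, whose endothelial level is described below. Each run is the 250 bases before the start on the plus strand, chr5:35041259-35041508 for Hgfac and chr5:16553245-16553494 for the upstream start of Hgf. Capitals mark letters of a motif match.
Hgfac: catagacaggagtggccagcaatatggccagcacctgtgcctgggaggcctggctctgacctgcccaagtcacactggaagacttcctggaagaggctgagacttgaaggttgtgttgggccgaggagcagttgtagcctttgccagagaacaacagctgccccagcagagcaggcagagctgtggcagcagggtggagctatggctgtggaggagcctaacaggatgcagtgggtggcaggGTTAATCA
Hgf: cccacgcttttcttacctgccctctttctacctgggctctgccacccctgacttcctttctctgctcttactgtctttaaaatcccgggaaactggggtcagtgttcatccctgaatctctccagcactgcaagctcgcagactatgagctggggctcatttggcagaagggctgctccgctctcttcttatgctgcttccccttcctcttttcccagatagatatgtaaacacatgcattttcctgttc
A set of 6 motifs was searched on both strands in windows reaching 50 bases past the start: an HNF1-type site, AP-1 (TGANTCA), CRE (TGACGTCA), the TATA box (TATAAA), the GC box (GGGCGG) and an E box (CACGTG). They occurred in 0.399%, 7.81%, 1.79%, 13.6%, 35.7% and 7.15% of 32851 promoter windows. An HNF1-type match lay across the Hgfac start, from -8 to 2, so that only its first letters are in the run. The Hgf window held none of the 6. The Met window held an AP-1 match from -54 to -48, an E box from -126 to -121 and 3 GC boxes, and it is not printed because the annotated gene begins inside it. Of the 9 members, 7 had an entry in the table, and a match is a description of letters only.

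On the EGF side, Egfr had 62.9 CPM at P14, 568 in the control, and 627, 501 and 448 at 24, 48 and 96 h (4065, 7569, 12238, 10447 and 6016 UMIs). The 4 adult libraries lay close together and far above P14, whose counting interval was 61.0 to 64.9 CPM. P14 also differed in its sex-linked RNA, so age and sex cannot be told apart in this gap. The log2 ratio at P14 was -3.15, and the ratios at 24, 48 and 96 h were 0.14, -0.18 and -0.34. Erbb3 had 47.8 CPM at P14, 112 in the control, and 34.5, 52.6 and 68.2 at 24, 48 and 96 h. It was lowest at 24 h and under the control in each other library, with log2 ratios of -1.67, -1.08 and -0.71 at the 3 times and -1.21 at P14. The 48 h ratio was -0.99 with TMM scaling, which ends its call. Among ligands, Tgfa had 16.0 CPM at P14, 29.3 in the control, and 56.7, 23.0 and 25.7 at 24, 48 and 96 h. Only the 24 h library stood above the control, with counting intervals of 53.4 to 60.1 CPM at 24 h and 26.5 to 32.3 CPM in the control. The interval of its 24 h log2 ratio of 0.93 reaches past the rule. Hbegf had 156 UMIs at P14 (2.42 CPM, 2.05 to 2.83) and 2 to 8 UMIs in each adult library. Egf had 88 UMIs at P14 and 4 to 20 elsewhere, at most 1.36 CPM. Areg had 0 to 8 UMIs.

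The 250 bases before the Tgfa and Egfr starts are shown because Tgfa stood out at 24 h and Egfr at P14, at chr6:86194972-86195221 and chr11:16751953-16752202, both on the plus strand and from the same RefSeq table.
Tgfa: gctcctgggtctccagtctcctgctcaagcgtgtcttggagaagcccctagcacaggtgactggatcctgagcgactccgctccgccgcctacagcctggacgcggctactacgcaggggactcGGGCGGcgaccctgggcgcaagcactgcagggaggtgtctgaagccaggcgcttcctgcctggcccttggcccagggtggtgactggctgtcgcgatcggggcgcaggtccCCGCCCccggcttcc
Egfr: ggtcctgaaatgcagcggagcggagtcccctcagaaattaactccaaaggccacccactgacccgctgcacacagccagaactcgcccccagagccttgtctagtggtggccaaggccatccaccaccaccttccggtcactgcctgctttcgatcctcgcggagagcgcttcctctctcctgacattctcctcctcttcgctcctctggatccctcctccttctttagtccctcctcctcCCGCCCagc
Both hold GC box matches and none of the other 5 motifs. Tgfa has them from -126 to -121 and, in reverse, from -15 to -10, and Egfr has 1 in reverse from -9 to -4.

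Read against all genes, the hepatocyte counts were as follows. At 24 h, 0 members were called higher and 3 lower, where 8.51% and 7.13% of 9028 genes were called higher and lower. At 48 h, 8.30% and 7.63% of genes were called and 0 and 2 members. The 96 h library had 4.07% and 1.88% of genes called, and 0 and 0 members. At P14, 1 member was higher and 2 were lower, beside 7.89% and 13.8% of genes. P14 had a shifted scale: its median over all genes was -0.26 by CPM and 0.06 with TMM scaling. Relative to that median the P14 log2 differences were 1.85 for Hgfac, -2.89 for Egfr and -0.95 for Erbb3, so the Erbb3 call at P14 was lost on that scale, also at -0.88 with TMM.

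**Figure D1:**
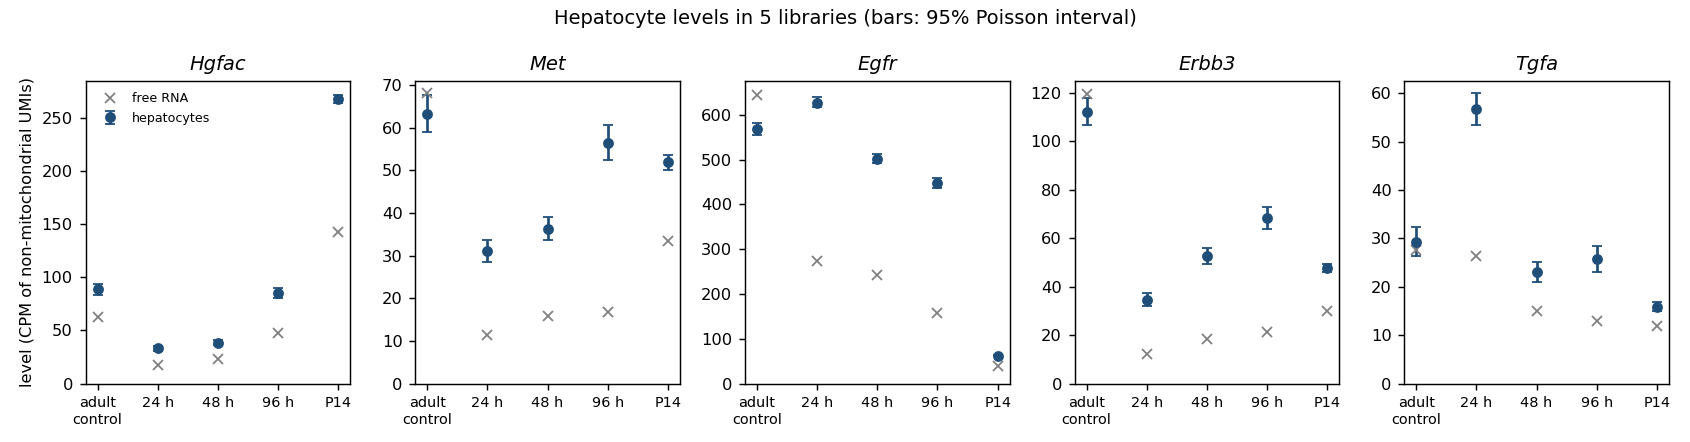
Levels of 5 members in hepatocytes of each library in CPM of non-mitochondrial UMIs (linear axes from 0), as points with 95% Poisson intervals, beside free RNA as crosses. Hgfac, Met and Erbb3 are low at 24 and 48 h, Tgfa stands out at 24 h, and Egfr is at 448 to 627 CPM in the adult libraries and at 62.9 CPM at P14.

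Times after PHx share a description code, and comparing them leaves the control out. From 24 to 48 h, Tgfa dropped to 0.406 of its level (0.364 to 0.452), Erbb3 was 1.52-fold higher (1.38 to 1.68), and Hgfac and Met were each 1.16 to 1.17-fold higher. From 48 to 96 h, Hgfac was 2.20-fold (2.01 to 2.42), Met 1.56-fold (1.41 to 1.72) and Erbb3 1.30-fold (1.19 to 1.42) higher.

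The share of hepatocytes with a UMI gave the same picture at matched depth. Thinned to 5000 UMIs, Tgfa was found in 21.0% of hepatocytes at 24 h (18.7% to 23.5%), 10.2% in the control, and 8.07%, 8.43% and 6.70% at 48 h, 96 h and P14. Egfr was found in 78.7% to 89.7% of adult hepatocytes and in 22.9% at P14. Without thinning, Egfr was in 98.2% to 99.9% of adult hepatocytes and 79.4% at P14. As a background, T or NK-like barcodes thinned to 1000 UMIs (median depth 4678 to 7833 before) had Egfr in 12.8% of the control and 0% to 6.99% of the other libraries, against 33.4% of control hepatocytes at the same 1000 UMIs, and Tgfa in 0% to 0.437%.

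Within a library, Egfr and Hgfac differed between hepatocytes by division state and by position in the lobule. Hepatocytes with UMIs of at least 3 of 24 mitosis genes at 5000 UMIs were set against those with 0 mitosis genes and at most 1 of 18 replication genes (163 and 415 barcodes at 24 h, 287 and 210 at 48 h, 62 and 542 at 96 h, and 245 and 1320 at P14). Egfr was lower in dividing cells at 24, 48 and 96 h. At 24 h it had 464 CPM in dividing and 679 CPM in other cells, at 48 h it had 429 and 588, and at 96 h it had 372 and 475, with ratios of 0.684, 0.731 and 0.783. At P14 the Egfr ratio was 0.941 (0.849 to 1.04), and 1.00 (0.896 to 1.12) when at least 5 mitosis genes were required. Hgfac was lower in dividing cells in all 4 of these libraries, with ratios of 0.599 at 24 h, 0.686 at 48 h, 0.539 at 96 h and 0.687 at P14. Met, Erbb3 and Tgfa were near equal or higher in dividing cells, with Met at 1.26 at 48 h (1.06 to 1.51) and 1.17 at P14 (1.05 to 1.29) and Tgfa at 1.42 at P14. The control had 4 dividing hepatocytes and gives no usable ratio. None of these ratios was past 2-fold, and dividing cells were deeper in UMIs at 24, 48 and 96 h (median 24850 against 19509 at 24 h). The part of this depth gap in the ratios was not tested.

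By position, hepatocytes were ranked on 8 pericentral and 8 periportal landmark genes, and the top part of 3 equal parts (pericentral) was set against the bottom part (periportal). Egfr had a lower pericentral level in 5 of 5 libraries, with log2 ratios of -0.55 for P14, -0.11 for the control, and -0.29, -0.09 and -0.65 for 24, 48 and 96 h. Hgfac did too, at -0.24, -0.48, -0.55, -0.29 and -0.43 in that order. Met, Erbb3 and Tgfa had both signs across libraries. Hbegf at P14 had 25 pericentral and 86 periportal UMIs. The landmarks Glul and Cyp2f2, on which the rank was built, separated as they must. At 96 h the pericentral barcodes were also deeper, with a median of 26140.5 UMIs and 19073 in periportal ones. At 24 h they were shallower, at 17927 and 19881.5 UMIs. The median mitochondrial share was lower in pericentral barcodes in 5 of 5 libraries, for example 23.9% and 26.5% in the control. The part of depth and of this share in the ratios was not tested. The bands are ranges of a score and not cell types.

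**Figure D2:**
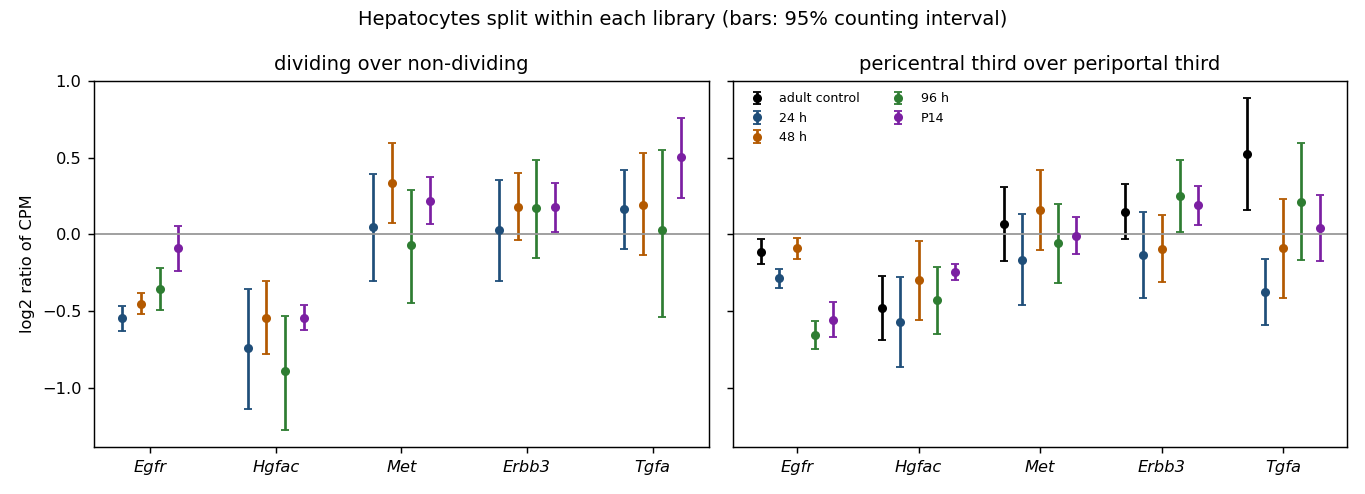
Log2 ratios of CPM within each library, with 95% counting intervals, for dividing over non-dividing hepatocytes (left, 4 libraries) and for pericentral over periportal hepatocytes (right, 5 libraries). The Egfr and Hgfac points lie under 0 in both panels, with the P14 interval of Egfr in dividing cells crossing 0. Met, Erbb3 and Tgfa lie near or above 0 on the left and scatter around 0 on the right.

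Hgf is the ligand of the HGF system that endothelial cells are known to make. In endothelial barcodes it had 25.4 CPM at P14, 62.0 in the control, and 169, 120 and 69.7 at 24, 48 and 96 h (23, 16, 117, 54 and 24 UMIs). At 24 h it was past the 2-fold rule, with a fold of 2.73 (1.61 to 4.93) and a log2 ratio of 1.43. At 48 h the fold was 1.93 (1.09 to 3.62) and at 96 h 1.12 (0.572 to 2.26). The call depended on how free RNA was treated. With free RNA subtracted from the sums, the log2 ratios were 0.98, 0.28 and -0.21 at 24, 48 and 96 h, so that the 24 h call ended. Without the barcodes that also met the hepatocyte rule the levels were 53.7, 78.8, 250, 210 and 87.8 CPM, and both the 24 h fold, 3.17 (1.84 to 5.86), and the 48 h fold, 2.66 (1.48 to 5.08), were past 2-fold. Free RNA would give under 0.2 UMIs of Hgf in these barcodes, against 15 in the control and 113 at 24 h. It would also make up 49.7% of all their UMIs in the control, and 23.2% and 6.00% at 24 and 48 h. Those UMIs enter the total that CPM is scaled to. Their part in these folds was not tested, as the subtraction was run on the full set only. Per 100 UMIs of the 7 endothelial markers, the Hgf level was 1.13, 0.870, 2.83, 1.56 and 1.10 at P14, control, 24, 48 and 96 h. Without the barcodes of both kinds, the fold per marker UMI was 3.34 (1.94 to 6.17) at 24 h. At 48 h it was 1.89 (1.05 to 3.61), not past 2-fold. The P14 log2 ratio of -1.26 depended on the scale, since it was 0.38 per marker UMI and 0.27 as a mean over barcodes. Hgf UMIs were spread over 57 of 181 barcodes at 24 h and 14 of 79 in the control. From 24 to 48 h Hgf had a ratio of 0.708 (0.503 to 0.985), and 0.839 (0.595 to 1.17) without the barcodes of both kinds. From 48 to 96 h the ratios were 0.581 (0.344 to 0.956) and 0.419 (0.247 to 0.689).

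Leaving out barcodes that met the hepatocyte rule, Hgf was found in endothelial barcodes with and without a UMI of Wnt2, Wnt9b or Rspo3, signals made by pericentral endothelium. At 24 h it was at 242 CPM in 83 barcodes with such a UMI and 267 CPM in 85 without, and at 48 h at 209 and 214 CPM. In the control it was at 128 (55.2 to 252) and 54.8 (22.0 to 113) CPM, in 16 and 58 barcodes. The intervals overlapped within each of these 3 libraries, as they did at P14 and 96 h. Barcodes with such a UMI were deeper, with medians of 3166 and 1396 UMIs at 24 h, with and without it. The medians were 3673 and 1732 at 48 h, and 4619 and 1729.5 in the control. A shallow barcode can lack such a UMI through depth alone, so the split is one of counts and not of cell types. The part of depth in these levels was not tested.

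Among EGF ligands in endothelial barcodes, Hbegf had 0 UMIs in the control, and 10, 6, 3 and 3 UMIs at 24, 48 and 96 h and at P14. The lower 95% bounds of its fold over the control were 0.837 at 24 h and 0.674 at 48 h, so these counts do not show a difference beyond counting error. The P14 UMIs were all in barcodes of both kinds. Tgfa had 23.3 CPM in the control, and 55.0, 48.8, 40.6 and 12.1 CPM at 24, 48 and 96 h and at P14 (6, 38, 22, 14 and 11 UMIs). Its fold over the control was 2.36 at 24 h (0.992 to 6.84) and 2.10 at 48 h (0.826 to 6.33), with 1 inside both intervals. Without the barcodes of both kinds it had 3, 29, 16, 10 and 1 UMIs in that order, where free RNA would give 2.70, 2.93, 0.245, 0.926 and 0.214. So Tgfa in the control was at the free RNA level, and at 24, 48 and 96 h it was above it. In that set its fold was 4.07 at 24 h (1.26 to 20.9) and 3.94 at 48 h (1.13 to 21.1), on 3 control UMIs. Areg had 0 UMIs in all 5 libraries, and Egf 1 at P14 and 2 in a single barcode at 96 h.

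**Figure D3:**
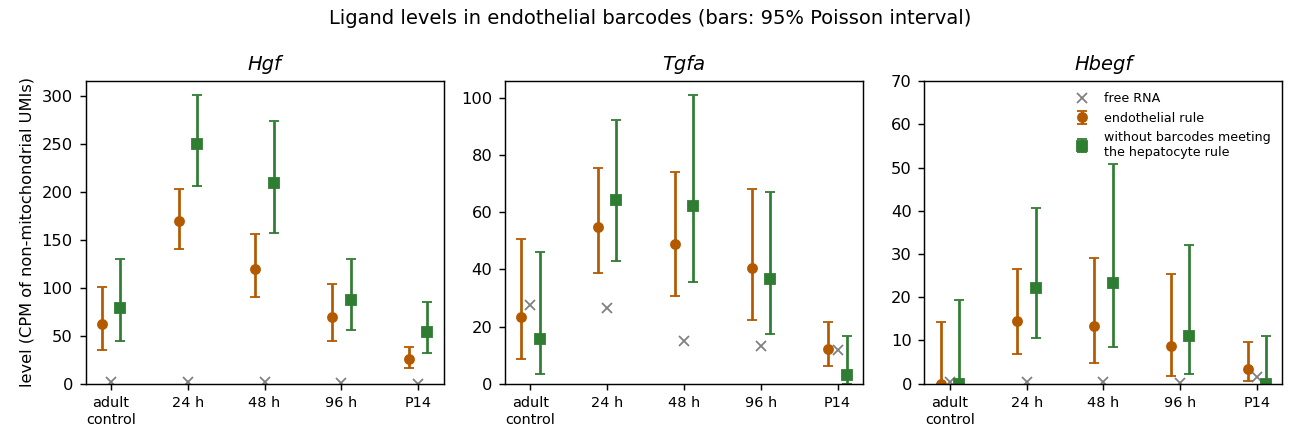
Hgf, Tgfa and Hbegf in endothelial barcodes of each library in CPM with 95% Poisson intervals, for all barcodes of the rule (circles) and without those that met the hepatocyte rule (squares), beside free RNA (crosses). Hgf is highest at 24 and 48 h in both sets, at 169 and 120 CPM or 250 and 210 CPM, and its free RNA level is at most 1.77 CPM.

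The receptors in endothelial barcodes lay close to free RNA in the control. Outside the hepatocyte rule, Egfr had 65, 41, 9, 10 and 3 UMIs in the control, at 24, 48 and 96 h and at P14, where free RNA would give 63.2, 30.3, 3.95, 11.2 and 0.713. Erbb3 had 15 UMIs in the control, where 11.7 would come from free RNA, and at most 1 elsewhere. Met had 6 in the control, where 6.68 would, and 0 to 3 elsewhere. With free RNA subtracted from the sums of all endothelial barcodes, the 96 h log2 ratio of Met went from -1.27 to -0.81, which ended its call. The other lower calls of Met, Egfr, Erbb3 and Hgfac stayed past the rule, for example Met at -1.13 at 24 h and Egfr at -1.28 at 96 h. Those sums still held the barcodes of both kinds, with which the control had 97 Egfr, 13 Met, 22 Erbb3 and 14 Hgfac UMIs. Without them it had 65, 6, 15 and 8. The subtraction was not run without those barcodes, and the cause of these lower calls was not tested. By the 2-fold rule, 1 member was called higher and 3 lower at P14, where 17.6% and 19.1% of all genes were. At 24 h there were 3 higher and 3 lower members, beside 15.8% and 13.9% of genes. At 48 h there were 2 and 3 members, beside 18.1% and 14.8%. The 96 h library had 2 and 3 members, beside 16.4% and 13.2%. Without the barcodes of both kinds, 0 members were higher and 4 lower at P14, beside 26.8% and 22.7% of genes. In that set 3 were higher and 4 lower at each of 24, 48 and 96 h, where genes stood at 19.1% and 18.5%, then 24.1% and 22.4%, then 16.0% and 19.9%. Endothelial counts are small enough that counting error alone takes many unchanged genes past 2-fold in simulated data, so a call here carries little weight without its interval. At 96 h the 2 higher calls rested on 2 UMIs of Egf and 3 of Hbegf.

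**Figure D4:**
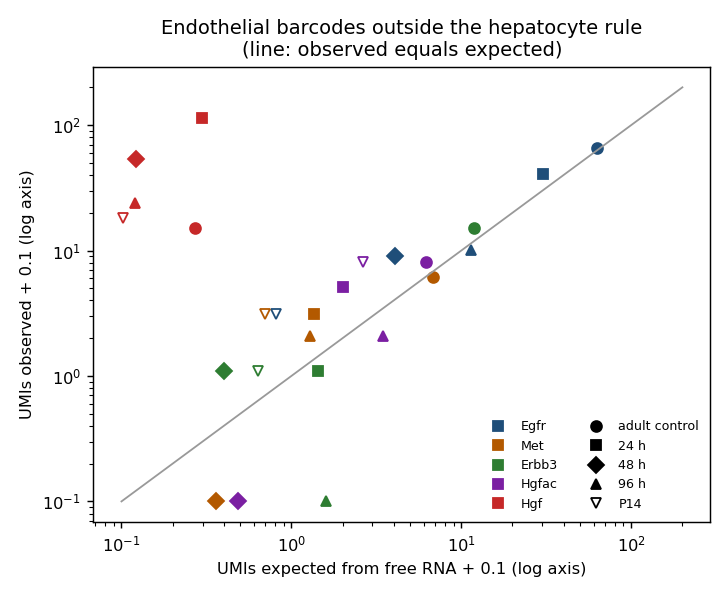
Observed UMIs of 5 members in endothelial barcodes outside the hepatocyte rule against the UMIs that free RNA would give, both plus 0.1 on log axes, with 1 point per member and library. Egfr in the control lies on the line of equality (65 against 63.2), while Hgf lies far above the line in all 5 libraries.

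Other barcodes were classed by at least 3 markers of exactly 1 class. Hgf had at most 2 UMIs per library in T or NK-like, B-like and erythroid-like barcodes. Basophil or mast-like barcodes, only 2 to 11 per library, held 0, 7, 3, 20 and 6 Hgf UMIs at P14, control, 24, 48 and 96 h, in 9 of 11 barcodes at 48 h (327 CPM, 200 to 505). Stellate or mesenchymal-like barcodes, a known source of Hgf in liver, numbered 1 to 12 per library and held 7 Hgf UMIs at 24 h and 3 at 96 h, too few to follow over time. Erbb3 was seen in plasmacytoid dendritic-like barcodes, with 22 UMIs in 51 barcodes of the control, and 16 in 68, 37 in 120 and 12 in 45 at 24, 48 and 96 h, or 34.3, 32.9 and 32.9 CPM at the 3 times and an interval of 31.3 to 75.7 CPM in the control. Free RNA would give 8.07, 0.542, 0.621 and 0.721. The 37 UMIs at 48 h were in 30 barcodes. At P14 there was 1 UMI in 8 such barcodes. T or NK-like barcodes had 3.34, 3.53 and 4.96 CPM of Erbb3 at 24, 48 and 96 h, below the plasmacytoid intervals. In the control they had 31.9 CPM (132 UMIs, of which free RNA would give 105) and monocyte-like barcodes 32.6 CPM on 5 UMIs, within the plasmacytoid interval, so the classes were not separated in that library.

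**Figure D5:**
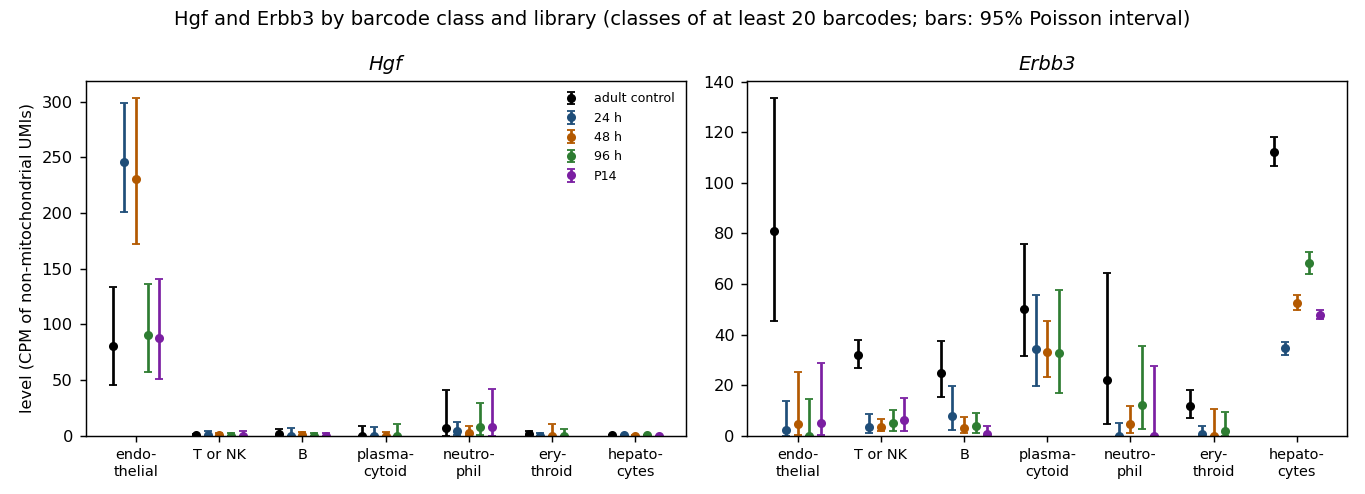
Hgf and Erbb3 in CPM with 95% Poisson intervals by barcode class and library, for hepatocytes and chosen classes of at least 20 barcodes. The classes are endothelial, T or NK, B, plasmacytoid dendritic, neutrophil and erythroid. Monocyte-like barcodes are not drawn, with 4 Hgf UMIs in 31 barcodes at 24 h (7.73 CPM). Among the classes drawn, Hgf is highest in endothelial barcodes in each library. Erbb3 is highest in control hepatocytes at 112 CPM, with 32.9 to 34.3 CPM in plasmacytoid dendritic-like barcodes after PHx, and the Erbb3 level of control endothelial barcodes is near its free RNA.

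The other genes of the 2 pathways were taken from 7 lists of 85 genes. In hepatocytes at 24 h, HGF activation and its inhibitors had 3 of 6 measured genes lower and 0 higher. The median log2 ratio of the list was -0.83 beside 0.00 over all genes. The 3 were the member Hgfac, Klkb1, plasma prekallikrein, which fell from 523 to 141 CPM, and Proc, from 254 to 123. Proc encodes protein C, an anticoagulant protease. It was counted as listed, though a role in HGF activation is not established for it. Other ligands had 2 of 3 higher, Nrg4 (neuregulin 4, 13.4 to 40.4 CPM) and Btc (betacellulin, 1.43 to 5.38). Among receptors and coreceptors, the heparan sulfate proteoglycan Sdc1 rose from 176 to 452 CPM and the coreceptor Nrp1 fell from 55.9 to 24.4. Negative regulators had 1 of 14 higher, Dusp6, a phosphatase of ERK (28.9 to 67.5), and 3 lower, among them Spry4, an inhibitor of receptor tyrosine kinase signals (15.5 to 2.87). In the signal relay, 1 of 20 measured genes was higher and 1 lower, the lower being the Met adaptor Gab1 (12.5 to 5.07 CPM), so this list did not move to one side. Of 7 early targets of the MAP kinase branch, 2 rose and 2 fell, with Dusp6 and Spry4 in both lists. Ccnd1, cyclin D1, rose from 25.5 to 369 CPM, and Phlda1 fell from 865 to 153. None of 5 ligand release genes passed the rule. These counts stand beside 8.51% of all genes higher and 7.13% lower at 24 h, which 1 of 20 and 1 of 14 do not exceed. At 48 h, 2 of 6 activation genes, 2 of 14 negative regulators and 1 of 20 relay genes were lower, early targets had 2 higher and 3 lower of 7, and the other 3 lists had 0 past the rule. Beside these, 8.30% of all genes were higher and 7.63% lower, so the relay count is below that share, and the lists are too small to read more from the counts. Ccnd1 stood at 141 CPM at 48 h and 101 at 96 h, Phlda1 at 47.8 and 357, and Spry4 at 1.06 and 4.32. Myc fell at both times, from 22.3 to 4.80 and 5.73 CPM. At P14 the activation list had 3 of 7 measured genes higher, Hgfac and Proc (524 CPM) among them, with the same limit on Proc. The list had 1 lower, Spint2 (115 to 46.9 CPM), an inhibitor of HGF-activating proteases. Of all genes, 7.89% were higher and 13.8% lower at P14.

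In endothelial barcodes the list counts are given with the barcodes of both kinds and, for some lists, also without them. Counting error alone takes many unchanged genes past 2-fold here, so the counts are descriptions with no test. At 24 h, 7 of 19 negative regulators were higher and 1 lower, and 5 of 12 early targets were higher and 1 lower, beside 15.8% of all genes higher and 13.9% lower. Spry2, Spry4, Dusp4 and Dusp6 belong to both lists, so these counts are not separate. At 48 h these lists had 8 of 19 and 7 of 12 higher, each with 1 lower, beside 18.1% and 14.8%. At 96 h they had 4 of 18 and 3 of 11 higher, each with 3 lower, beside 16.4% and 13.2%. Without the barcodes of both kinds, negative regulators had 8 of 19, 10 of 19 and 5 of 18 higher at 24, 48 and 96 h, and 1, 3 and 2 lower. Early targets had 6 of 12, 8 of 12 and 5 of 11 higher, and 1, 1 and 2 lower. In that set 19.1%, 24.1% and 16.0% of all genes were higher, and 18.5%, 22.4% and 19.9% lower. Free RNA would make up 49.7% of the control's UMIs there, and 23.2%, 6.00% and 24.8% at 24, 48 and 96 h. Those UMIs enter the total that CPM is scaled to, and their part in the counts of any list was not tested. In the HGF activation list, 1 of 8 measured genes was higher at each time and 3, 2 and 2 were lower. At 48 and 96 h these counts are near the shares over all genes, and the list is too small to read a direction. Without the barcodes of both kinds it had 1 higher at each time and 5 lower, of 7, 8 and 8 measured genes. At P14 this list had 4 higher and 1 lower of 8, beside 17.6% and 19.1% of all genes. Without those barcodes it had 1 higher and 5 lower of 8, beside 26.8% and 22.7%, so its P14 counts depended on those barcodes. Its genes are made mostly by hepatocytes, and the part of the control's free RNA in these counts was not tested. Receptors and coreceptors had 2 higher and 3 lower of 6 at 24 h, 1 and 1 at 48 h, and 1 and 2 at 96 h. Ligand release had 3, 2 and 2 of 7 higher and 0 lower, and the signal relay 5, 2 and 3 of 21 higher and 0, 1 and 1 lower.

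Among single genes, Adam10, which releases Egf and betacellulin, had 54.3 CPM in the endothelial barcodes of the control, and 113, 171 and 186 at 24, 48 and 96 h, with folds of 2.08 (1.17 to 3.98), 3.15 (1.77 to 6.03) and 3.42 (1.90 to 6.61). Adam17, which releases Tgfa and Hbegf, had 23.3 CPM in the control and 60.8 at 24 h, a fold of 2.61 (1.11 to 7.52). In the control, free RNA would give 2.60 of the 6 Adam17 UMIs and 2.87 of the 14 Adam10 UMIs. Itgb1, an integrin subunit, went from 221 to 486 CPM at 24 h, a fold of 2.20 (1.66 to 2.97). Spry2, an inhibitor of receptor tyrosine kinase signals, had 3.88 CPM in the control, from a single UMI, and 30.4 CPM at 24 h, a fold of 7.84 with a wide interval of 1.26 to 324. Nrg1 had 0 UMIs in the control and 25 at 96 h, which lay in 3 barcodes, 15 of them in 1. In all endothelial barcodes free RNA would make up 36.7% of UMIs in the control, and 15.2%, 3.60% and 19.7% at 24, 48 and 96 h. Its part in the folds of these single genes was not tested.

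By likeness of the 5 hepatocyte levels among 2115 genes, measured as the root mean square difference of centred log2(CPM + 1), the nearest gene to Hgfac was Tsc22d1 (0.13), followed by Aldh3a2 and Prodh2. Nearest to Met were Entpd8 (0.05), Sh3bp5 and Zkscan1, to Egfr AC079680.2 (0.10), Ttc39b and Dhcr7, to Erbb3 Oaf (0.10), Sirt7 and Ptms, and to Tgfa Slc25a22 (0.08), Glrx and Cobl. These are descriptions over 5 libraries that share depth and composition, with no test.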

How the data were processed

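Single-cell RNA libraries of liver were analysed from the deposited matrices, holding the authors' UMI counts, unscaled, for every gene in every barcode. Per the submitters' processing notes, reads were handled with bcl2fastq 2.17.1.14, Cell Ranger and Seurat 3.1 on build mm10; software version 3.0.2 is named per the file headers. Each matrix lists 31053 genes and 6794880 barcodes, with totals of 80927744 to 136110607 UMIs, so depth limits the precision of low members most in endothelial barcodes. From the counts, UMIs were summed per library and class with Python 3.11.15, numpy 2.4.6, pandas 2.3.3 and scipy 1.17.1, and CPM was taken over non-mitochondrial UMIs. Ratios used a pseudocount of 1 CPM, which understates ratios of low genes, and a filter of 5 CPM in at least 1 library. Poisson and Clopper-Pearson intervals cover counting error only. Free RNA was the profile of barcodes ranked above 20000 and up to 60000 by UMIs. TMM factors came from edgeR 4.0.16, with no edgeR test. Alternatives changed the scaling, pseudocount, filter and barcode rules. The ratio and call steps were tested on simulated data: in hepatocytes they called no unchanged gene, but in endothelial barcodes, where counts are small, many unchanged genes passed 2-fold through counting error alone. Doublets were not called; alternatives leave out candidates. Named pathway genes were those past 2-fold with at least 20 UMIs, up to 10 per list, direction and comparison. Barcode classes needed at least 3 markers of 1 class. The members and lists were chosen with earlier results of these data known. Some genes of the pathway lists are not reported here. Nothing says whether a library pooled mice.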

Additional observations from a re-analysis of the deposited data

Results flagged for a closer look

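Several ratios to the adult control pointed in opposite directions between comparisons, each untested because there was 1 library a group. Hgfac in hepatocytes was higher at P14 (log2 ratio 1.58) and lower at 24 h (-1.39) and 48 h (-1.18). Hgf in endothelial barcodes had log2 ratios of 1.43 at 24 h (0.98 with free RNA subtracted) and -1.26 at P14. The P14 direction was not stable: it was 0.27 by the mean of CPM per barcode and 0.38 per endothelial marker UMI, and the P14 call ended under 6 alternatives. Hgfac in endothelial barcodes had log2 ratios of 1.63 at P14, -1.48 at 24 h and -4.10 at 48 h, on 154, 13 and 1 UMIs against 14 in the control. At P14 8 of the 154 UMIs were outside barcodes meeting the hepatocyte rule, and without those barcodes the P14 ratio was -0.79, so the opposite directions were not seen there.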

How the results depend on the processing

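No paired analysis was possible because each group has 1 library. Under the alternatives, 186 counts of members past 2-fold stayed within 1.5 times the reported count and 14 did not, as follows. With TMM scaling, 1 member was lower in hepatocytes at P14 and 1 at 48 h, against 2 each. With no filter on low values, 2 were higher in hepatocytes at P14 and 3 in endothelial barcodes at P14, against 1 each. With no lower limit on the mitochondrial share, 1 was lower in hepatocytes at 96 h (Erbb3), against 0. In endothelial barcodes at P14, 0 were higher by the mean of CPM per barcode, without barcodes meeting the hepatocyte rule and without those of at least 5% Alb, Apoa1 and Ttr, and the last of these gave 5 lower against 3. At 48 h, 1 was higher, against 2, with CPM of all UMIs, a pseudocount of 5 CPM, a filter of 20 CPM, and without barcodes of rank above 20000, and at 96 h the filter of 20 CPM gave 0 against 2. Of 600 ratios under the alternatives, 495 stayed within their counting interval. Another 101 were counted as moved, among them any changed ratio over a control of 0 UMIs. By the ratio alone, 22 calls ended and 21 were gained. A change of sign occurred in 11, of which 4 were ratios past 2-fold, all at P14 in endothelial barcodes: Hgf, at 0.27 by the mean of CPM per barcode and 0.38 per endothelial marker UMI (an alternative chosen after seeing the data), and Hgfac, at -0.79 without barcodes meeting the hepatocyte rule and -2.07 without those of at least 5% Alb, Apoa1 and Ttr. The other 7 were ratios within 2-fold. With free RNA subtracted, endothelial Egfr went from -0.41 to 0.56 at 24 h and from -0.69 to 0.28 at 48 h, and endothelial Hgf from 0.16 to -0.21 at 96 h. Endothelial Tgfa at P14 went from -0.89 to 0.09 by the mean of CPM per barcode. In hepatocytes, Met at P14 went from -0.28 to 0.06 with TMM, Hgfac at 96 h from -0.06 to 0.36 with a mitochondrial share of 10% to 20%, and Egfr at 24 h from 0.14 to about 0 with no lower limit on that share. Free RNA subtraction also ended the 24 h call of endothelial Hgf (0.98) and the 96 h call of endothelial Met (-1.27 to -0.81). The 48 h call of endothelial Tgfa (1.04) ended under 4 alternatives, at 0.93 to 0.96. The cause was not tested. The Met ratio at 24 h in hepatocytes ranged from -1.13 to -0.92. Egf, Hbegf and Areg had few UMIs in most libraries, as Hgf had in hepatocytes, so depth limits what can be read from them.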

Other observations

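T or NK-like barcodes held Hbegf UMIs in each library, 1 at P14, 15 in the control, and 5, 8 and 5 at 24, 48 and 96 h, where free RNA would give at most 0.317. Monocyte-like barcodes, 10 to 32 per library, held 9 UMIs of Met at P14, 0 in the control, and 7, 4 and 6 at 24, 48 and 96 h, where free RNA would give at most 1.26.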
